A study of Mus musculus with 8 samples.

Results

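The genes described here are 53 cell cycle genes, 19 that serve DNA replication in S phase and 34 that serve mitosis, listed by name for their known roles. Every probe annotated to one of them was taken. A probe was used where its detection p-value, the share of negative control beads as bright as the probe, was under 0.01 on 4 or more of the 8 arrays. By that rule 39 of the 53 genes could be tested, 16 of replication and 23 of mitosis, among 8252 tested genes of 19057 with a named probe.

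All samples came from CCL17E/+ mice of the C57BL/6 background, aged 2 to 5 months, in which EGFP reports expression of the chemokine gene Ccl17. Every mouse had received 100 µg of LPS, bacterial endotoxin, 15 h before harvest, so neither group is an untreated control. From lymph nodes (LN, mesenteric and peripheral) the sort kept EGFP-positive NK1.1-CD8alpha-CD11c+CD11b+ dendritic cells, and from spleen it kept EGFP-negative cells with the same surface markers, in parallel from the same mice. Each group had 4 arrays, and the comparison is of CCL17-positive LN cells with CCL17-negative spleen cells. Organ and CCL17 status differ together and cannot be told apart. How many mice went into a sort, and whether RNA was pooled, is not given in the sources used here. The p-values therefore rest on the spread among the deposited samples, which may in part be technical.

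A dividing cell first licenses origins of replication with the MCM helicase, then copies its DNA in S phase with a supply of deoxynucleotides, and later condenses and separates its chromosomes on the spindle under the control of cyclin-dependent, Aurora and Polo-like kinases. Replication genes are largely transcribed at the G1 to S border under E2F factors. Mitosis genes peak later, and their promoters often hold a cell cycle genes homology region (CHR) beside CCAAT boxes, bound by the MuvB complex with B-MYB and FOXM1 and by the factor NF-Y. Dendritic cells arise from dividing precursors, and in mouse spleen a fraction of the resident dendritic cells is in cycle, whereas dendritic cells that have matured in LN divide little.

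Between 30.4% and 33.1% of the probes on each array were detected, at a median intensity of 65.0 to 88.2. Spleen replicate 4 stood apart: its mean correlation with the other spleen arrays was 0.895, whereas that of the other spleen arrays was 0.947 to 0.956 and that of the LN arrays 0.974 to 0.979. All 13 listed conventional dendritic cell markers had a probe, each was detected on at least 1 array, and 10 could be tested. Ccl17 itself was higher in LN by 6.27 ± 0.28 (SE) on the log2 scale (limma adjusted p = 1.13e-06), which the sort fixed, and the other 9 were not called. The summed normalized intensity of the 10 was 111714 to 158800 in LN and 68555 to 142839 in spleen, where replicates 1 and 2 were the lowest. Of the genes whose proteins the gate excluded, Klrb1c, which encodes NK1.1, and Cd8a were detected on no array. Levels are background-corrected, quantile-normalized log2 intensities, and every fold is the log2 difference of LN minus spleen, so a negative fold is lower in LN. A call means an adjusted p under 0.05 in limma, with the Benjamini-Hochberg method over all tested genes.

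Mitosis genes were lower in the LN cells. Of the 23 tested, 19 were called lower and 0 higher. Over all tested genes 7.59% were called lower and 7.99% higher. All 23 folds were negative, as were 47.6% of those over all tested genes, with a median of -1.34 on the log2 scale against 0.03 over all tested genes. Smc4 passed the detection filter through its spleen arrays alone, and without it 18 of 22 were called lower. Of the 20 mitosis genes detected on all 8 arrays, 15 were called lower and 0 higher, against 7.71% called lower of all genes so detected. In 17 of the 23 all 4 LN arrays lay below all 4 spleen arrays, as was the case for 9.94% of all tested genes.

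Replication genes differed less: 3 of 16, Tk1, Ccne1 and Cdt1, were called lower and 0 higher. Over all tested genes 7.59% were called lower and 7.99% higher. The median fold of the replication genes was -0.21, with 13 negative and 3 positive folds. In 4 of the 16 all LN arrays lay below all spleen arrays, against 9.94% of all tested genes. Of the 12 replication genes detected on all 8 arrays, 2 were called lower, against 7.71% of all genes so detected. The difference between the classes was not itself tested. In RNA from sorted populations, fewer cycling cells and less of these transcripts per cell cannot be told apart.

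The number of mitosis genes called lower was 20 without spleen replicate 4, and 12 without LN replicate 1 or without spleen replicate 2. For the replication genes it was 5 without spleen replicate 4, with Rrm1 and Rrm2 added. Median scaling of the arrays, instead of quantile normalization, moved the median fold of all tested genes from 0.03 to 0.24 and raised the share of calls that were higher in LN from 51.3% to 66.5%. Under that scaling 10 mitosis genes were called lower, and their median fold less that of all genes was -1.32, against -1.37 with quantile normalization.

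**Figure D1:**
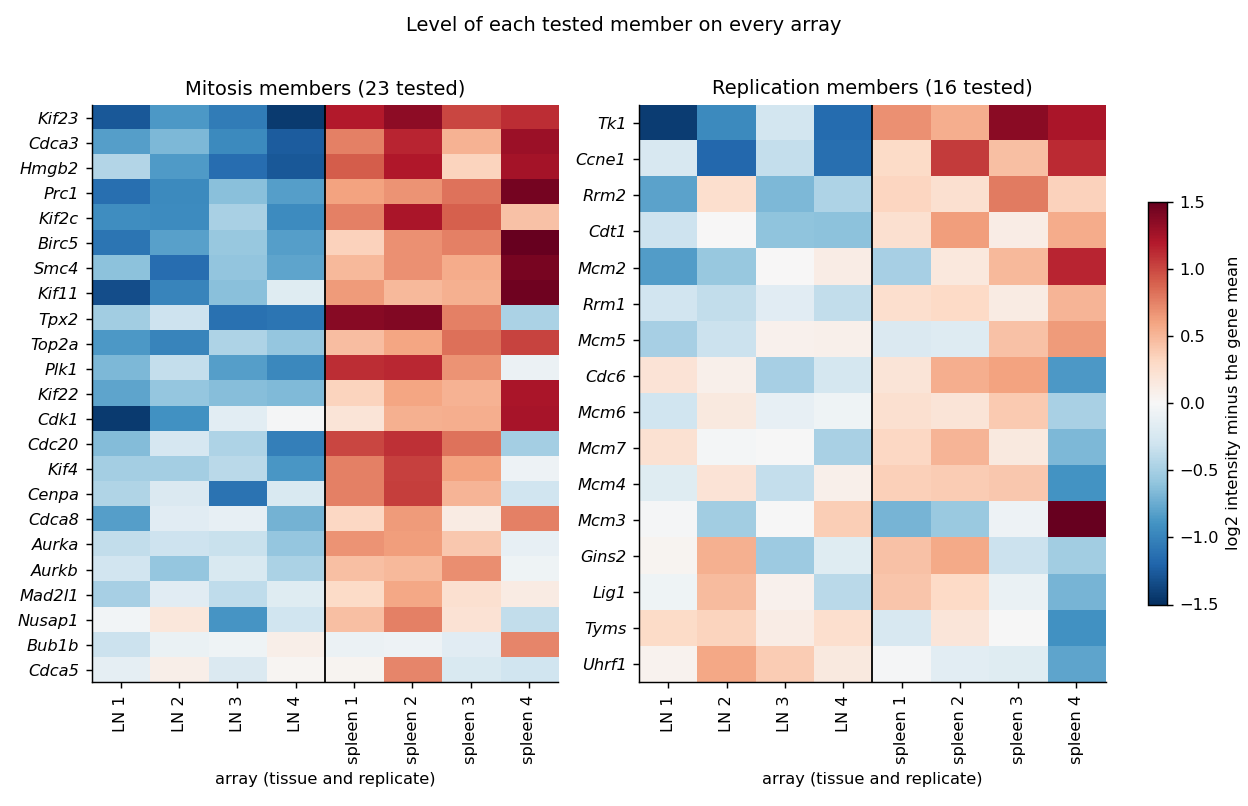
Log2 intensity of the 39 tested genes on each array, as the difference from the gene's own mean over the 8 arrays, in log2 units (colours saturate at 1.5), with LN arrays on the left, spleen arrays on the right and mitosis and replication genes in separate panels. The LN mean is below the spleen mean in 23 of 23 mitosis rows and in 13 of 16 replication rows, and spleen replicate 4 departs from the other spleen arrays in both directions.

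The promoters of some genes of each class are shown because the listed genes of the classes differ in the short sequences that they carry. The windows, from RefSeq on GRCm38.p6, run from 250 bases before to 50 bases after the annotated start, 5′ to 3′ on the gene's strand. Capitals mark, on either strand, the CHR letters TTTGAA, the CCAAT box and the E2F letters TTTCCCGC, TTTCGCGC, TTTGGCGC and TTTGCCGC. The first 4 belong to the mitosis genes with the 4 largest folds (Prc1 has 2 annotated windows, of which 1 is shown).
Kif23 (chr9:61946750-61947049, minus strand): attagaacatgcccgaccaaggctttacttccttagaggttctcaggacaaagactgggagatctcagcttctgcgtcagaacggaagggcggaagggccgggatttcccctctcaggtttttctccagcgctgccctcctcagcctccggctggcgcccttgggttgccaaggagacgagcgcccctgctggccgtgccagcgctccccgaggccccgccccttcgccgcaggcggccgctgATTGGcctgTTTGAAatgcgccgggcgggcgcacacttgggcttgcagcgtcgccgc
Cdca3 (chr6:124829926-124830225, plus strand): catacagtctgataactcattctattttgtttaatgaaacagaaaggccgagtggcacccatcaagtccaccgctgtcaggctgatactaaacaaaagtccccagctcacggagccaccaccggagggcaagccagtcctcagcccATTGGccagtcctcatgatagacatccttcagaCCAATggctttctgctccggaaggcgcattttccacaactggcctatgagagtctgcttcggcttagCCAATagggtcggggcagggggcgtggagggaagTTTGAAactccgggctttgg
Hmgb2 (chr8:57511593-57511892, plus strand): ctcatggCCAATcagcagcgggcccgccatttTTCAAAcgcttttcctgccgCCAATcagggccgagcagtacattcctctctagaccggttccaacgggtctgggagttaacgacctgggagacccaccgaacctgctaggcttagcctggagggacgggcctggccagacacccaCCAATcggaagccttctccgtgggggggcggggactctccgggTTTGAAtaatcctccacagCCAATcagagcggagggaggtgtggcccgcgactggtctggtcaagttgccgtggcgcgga
Prc1 (chr7:80294201-80294500, plus strand): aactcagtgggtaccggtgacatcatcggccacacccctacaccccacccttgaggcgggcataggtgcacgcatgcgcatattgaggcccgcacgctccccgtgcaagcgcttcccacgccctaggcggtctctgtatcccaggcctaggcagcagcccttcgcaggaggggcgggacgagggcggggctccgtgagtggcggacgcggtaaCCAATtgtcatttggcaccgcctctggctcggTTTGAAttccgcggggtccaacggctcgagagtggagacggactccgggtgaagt
All 4 mitosis windows hold a CHR and a CCAAT box, and none holds an E2F match. The next 3 belong to MCM helicase genes that were not called, with folds of -0.08 (Mcm3), -0.33 (Mcm5) and -0.17 (Mcm6). They were picked from the MCM genes and are not the replication genes with the smallest folds. The last belongs to Tk1, the replication gene with the largest fold.
Mcm3 (chr1:20820263-20820562, minus strand): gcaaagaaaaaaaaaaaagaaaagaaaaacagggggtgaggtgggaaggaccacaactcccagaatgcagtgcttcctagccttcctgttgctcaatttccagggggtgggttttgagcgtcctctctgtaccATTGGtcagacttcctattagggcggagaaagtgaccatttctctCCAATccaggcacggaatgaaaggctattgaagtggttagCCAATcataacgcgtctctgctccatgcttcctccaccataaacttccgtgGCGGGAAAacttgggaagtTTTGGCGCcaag
Mcm5 (chr8:75109259-75109558, plus strand): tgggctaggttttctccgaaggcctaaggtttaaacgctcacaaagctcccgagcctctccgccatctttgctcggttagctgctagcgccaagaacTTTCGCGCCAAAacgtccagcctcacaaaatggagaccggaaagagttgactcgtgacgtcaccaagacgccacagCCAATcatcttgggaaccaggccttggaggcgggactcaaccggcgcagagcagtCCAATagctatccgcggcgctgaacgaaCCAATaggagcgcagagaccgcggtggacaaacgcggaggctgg
Mcm6 (chr1:128359656-128359955, minus strand): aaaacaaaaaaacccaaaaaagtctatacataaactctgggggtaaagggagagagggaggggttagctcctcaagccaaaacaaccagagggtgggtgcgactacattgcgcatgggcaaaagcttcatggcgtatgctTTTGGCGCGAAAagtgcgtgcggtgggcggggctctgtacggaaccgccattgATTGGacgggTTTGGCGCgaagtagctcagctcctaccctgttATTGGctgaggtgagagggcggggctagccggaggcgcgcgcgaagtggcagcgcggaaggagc
Tk1 (chr11:117825965-117826264, minus strand): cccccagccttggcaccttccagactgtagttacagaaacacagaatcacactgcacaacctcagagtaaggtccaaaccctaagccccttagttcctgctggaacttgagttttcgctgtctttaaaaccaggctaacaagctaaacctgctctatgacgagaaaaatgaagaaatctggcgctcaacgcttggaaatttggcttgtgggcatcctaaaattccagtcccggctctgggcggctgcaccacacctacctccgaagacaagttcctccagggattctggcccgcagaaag
The MCM windows shown hold between 2 and 3 E2F matches each, some of them overlapping on opposite strands, and no CHR. They hold CCAAT boxes as well, 3 in Mcm3, 3 in Mcm5 and 2 in Mcm6. The window of Mcm2, not shown, holds a CHR and no E2F match. In the Tk1 window none of these letters occur, which says nothing of the factors that act there.

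Of the 8 tested spindle motors and microtubule factors, 7 were called lower, against 7.59% of all tested genes, with a median fold of -1.54. Kif23 encodes the kinesin of the central spindle that is needed for cytokinesis. It had log2 intensities of 7.84, 8.25, 8.06 and 7.68 on LN replicates 1 to 4, and of 10.30, 10.45, 10.11 and 10.22 on spleen replicates 1 to 4. The groups lay far apart, with a fold of -2.31 ± 0.19 (SE, adjusted p = 3.78e-05), or 4.98-fold higher in spleen. Of its 3 passing probes a second gave -1.99 (adjusted p = 0.000442) and the third -0.06 (adjusted p = 0.904), so the size of its difference depended on the probe.

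Prc1, which bundles the antiparallel microtubules on which KIF23 works, had log2 intensities of 7.91, 8.09, 8.42 and 8.21 in LN and of 9.65, 9.71, 9.86 and 10.48 in spleen. Every LN array was below every spleen array, with a fold of -1.77 ± 0.23 (adjusted p = 0.000538). Kif2c, a kinesin that takes microtubules apart at centromeres, read 6.13, 6.11, 6.57 and 6.11 in LN and 7.81, 8.28, 7.95 and 7.49 in spleen on the log2 scale. LN replicate 3 was the highest of a tight LN group, and the groups were separate (fold -1.65 ± 0.23, adjusted p = 0.000837).

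Kif11, the motor that pushes spindle poles apart, had log2 intensities of 4.59, 4.93, 5.29 and 5.74 in LN, where it was detected on 1 array. In spleen, where it was detected on all 4, it read 6.56, 6.40, 6.45 and 7.38. The fold was -1.56 ± 0.31 (adjusted p = 0.0064), and because most LN values lay near background its size is uncertain. Tpx2, a spindle assembly factor that activates Aurora A, was also called lower, with a fold of -1.52 ± 0.41 (adjusted p = 0.0294). It was detected on 2 LN arrays, and spleen replicate 4, at 5.94, fell within the LN range of 5.29 to 6.10. The call on Tpx2 was lost, at an adjusted p of up to 0.0907, without any single one of LN replicates 1, 3 and 4 or spleen replicates 1, 2 and 3.

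Kif22, which moves chromosome arms, had a fold of -1.34 ± 0.22 (adjusted p = 0.00218), and Kif4, a motor of condensed chromosomes and of the central spindle, one of -1.15 ± 0.26 (adjusted p = 0.0131). Both had LN arrays wholly below the spleen arrays. Nusap1, a protein that crosslinks spindle microtubules, read 11.32, 11.53, 10.47 and 11.06 in LN and 11.81, 12.11, 11.57 and 10.99 in spleen. The LN and spleen ranges overlapped through spleen replicate 4, and Nusap1 was not called (fold -0.52 ± 0.29, adjusted p = 0.283). Without that array its adjusted p was 0.0428.

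All 4 tested genes of centromere and chromosome structure were called lower, against 7.59% of all tested genes, with a median fold of -1.51. The count and the median include Smc4, which passed the detection filter through its spleen arrays alone, so its call adds no support. Hmgb2, a chromatin protein that is abundant in dividing cells, had log2 intensities of 7.99, 7.58, 7.28 and 7.16 in LN and of 9.33, 9.63, 8.76 and 9.68 in spleen. The lowest spleen array was above the highest LN array, and the fold was -1.85 ± 0.27 (adjusted p = 0.00113). Top2a, the topoisomerase that untangles sister chromatids, had a fold of -1.45 ± 0.21 (adjusted p = 0.00113), and its dimmer passing probe one of -0.77 (adjusted p = 0.0648).

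Smc4, a core subunit of condensin, read 6.35, 6.55, 6.42 and 7.29 in spleen and was detected there on all 4 arrays. In LN it was not above background on any array, at 5.25, 4.72, 5.28 and 5.08, so only a bound can be given: it was at least 2.38-fold higher in spleen, the mean of the spleen arrays against the detection limit of the LN arrays. This probe passed the detection filter through the spleen arrays alone, so it had to differ and its call adds no support. A second Smc4 probe, detected on 3 arrays of each group, gave a fold of -0.25 (adjusted p = 0.745). Without spleen replicate 4 the second probe was the brighter and stood for the gene, with a fold of -0.56 (adjusted p = 0.168), whereas the first probe gave -1.39 on the same 7 arrays. Cenpa, the histone variant that marks centromeres, had the smallest called fold of this group, -1.01 ± 0.30 (adjusted p = 0.0495). Spleen replicate 4, at 10.84, lay within the LN range of 10.03 to 10.92, and the call on Cenpa was lost, at an adjusted p of up to 0.140, without any single array other than that one.

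The 4 tested mitotic kinases were all called lower, against 7.59% of all tested genes, with a median fold of -1.03. Plk1, the Polo-like kinase of spindle assembly and mitotic entry, had a fold of -1.41 ± 0.29 (adjusted p = 0.00843), with LN arrays at 6.60 to 7.20 and spleen arrays at 7.47 to 8.69. Cdk1, the kinase that drives entry into mitosis, had a fold of -1.26 ± 0.35 (adjusted p = 0.0345). Its LN arrays spread widely, from 5.88 to 7.29, and its spleen arrays ran from 7.51 to 8.55. The call on Cdk1 was lost, at an adjusted p of up to 0.0948, without LN replicate 1 or 2 or spleen replicate 2 or 3. Aurka and Aurkb, the Aurora kinases of the spindle poles and of the centromere, had folds of -0.79 ± 0.22 (adjusted p = 0.0361) and -0.78 ± 0.22 (adjusted p = 0.0372). Both were separate between the groups, but both calls were lost without any single array other than spleen replicate 4, at adjusted p of up to 0.110 and 0.104.

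Of the checkpoint and anaphase genes 2 of 4 were called lower, against 7.59% of all tested genes. Cdca3, an adaptor through which the mitotic entry inhibitor WEE1 is degraded, had log2 intensities of 7.20, 7.36, 7.07 and 6.78 in LN and of 8.79, 9.17, 8.55 and 9.31 in spleen. The groups were well apart, with a fold of -1.85 ± 0.23 (adjusted p = 0.000459), or 3.61-fold higher in spleen. Cdc20, the activator of the anaphase-promoting complex, had a fold of -1.20 ± 0.36 (adjusted p = 0.0463). Its spleen replicate 4 read 7.25, within the LN range of 6.73 to 7.51, and the call on Cdc20 was lost, at an adjusted p of up to 0.136, without any single other array. In the limma fit of every passing probe, the other 2 Cdc20 probes, which were dimmer, had folds of -1.48 (adjusted p = 0.0014) and -1.31 (adjusted p = 0.00414). In that fit the brightest Cdc20 probe was not called (adjusted p = 0.0553).

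Mad2l1 and Bub1b, both of the spindle checkpoint complex that holds CDC20 inactive, were not called. Mad2l1 had a fold of -0.62 ± 0.19 (adjusted p = 0.057), and all its LN arrays, at 7.55 to 7.88, lay below its spleen arrays, at 8.17 to 8.63. Without spleen replicate 4 the adjusted p of Mad2l1 was 0.0174. Bub1b read 9.65, 9.87, 9.91 and 10.06 in LN and 9.88, 9.90, 9.80 and 10.70 in spleen. Spleen replicate 4 alone stood above the LN range, and the fold of -0.20 ± 0.23 (adjusted p = 0.66) became 0.01 without it.

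Among the genes of the chromosomal passenger complex and cohesion, Birc5 encodes survivin, which brings Aurora B to centromeres. Birc5 had log2 intensities of 6.94, 7.23, 7.47 and 7.21 in LN and of 8.39, 8.72, 8.79 and 9.56 in spleen. It was lower on every LN array, with a fold of -1.65 ± 0.27 (adjusted p = 0.00198). Cdca8, which encodes borealin of the same complex, had a fold of -0.91 ± 0.24 (adjusted p = 0.0297), and its call was lost, at an adjusted p of up to 0.0977, without LN replicate 1 or 4 or spleen replicate 1 or 2. Cdca5, which encodes sororin, the protector of sister chromatid cohesion, read 5.80, 6.02, 5.71 and 5.96 in LN and 5.97, 6.66, 5.70 and 5.63 in spleen. Only spleen replicate 2 lay above the LN range, and Cdca5 was not called (fold -0.11 ± 0.25, adjusted p = 0.84). Without spleen replicate 2 the fold of Cdca5 was 0.11.

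**Figure D2:**
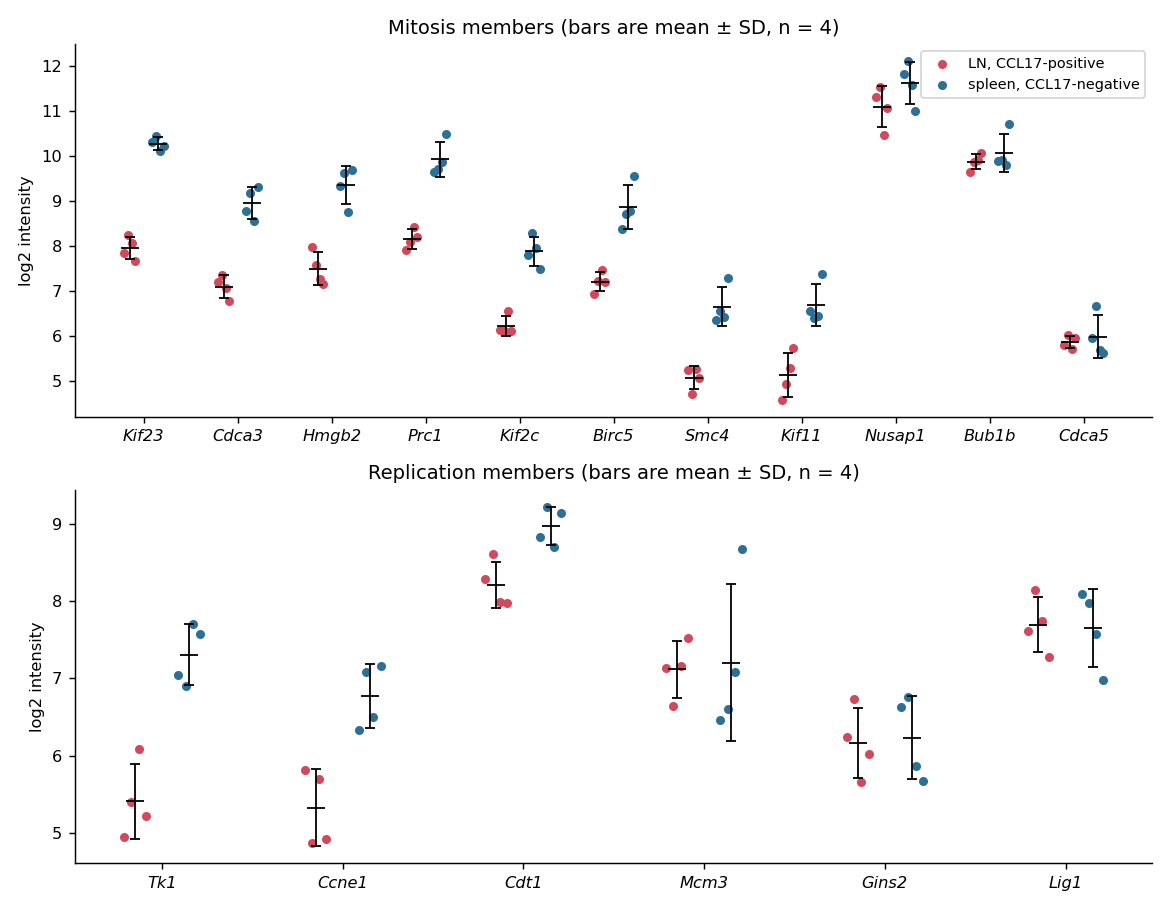
Log2 intensity of the named genes on each of the 4 LN and 4 spleen arrays, mitosis genes above and replication genes below, with points for arrays and bars for the mean ± SD (n = 4 per group). Kif23, Cdca3, Hmgb2, Prc1 and Tk1 show no overlap between the groups, whereas in Mcm3 the spleen arrays span 6.46 to 8.68 and enclose the LN arrays.

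Among the replication genes, those of nucleotide supply had a median fold of -0.72, with 1 of 4 called lower, against 7.59% of all tested genes. Tk1, the thymidine kinase that salvages thymidine for DNA synthesis, had log2 intensities of 4.94, 5.40, 6.08 and 5.21 in LN and of 7.05, 6.90, 7.71 and 7.58 in spleen. LN replicate 3 alone detected it in LN, as against every array in spleen, and the groups were separate (fold -1.90 ± 0.29, adjusted p = 0.00157). Rrm1 and Rrm2, the large and small subunits of ribonucleotide reductase, fell just short of a call, with folds of -0.59 ± 0.18 (adjusted p = 0.0515) and -0.85 ± 0.26 (adjusted p = 0.0559).

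Rrm1 read 7.69 to 7.88 in LN and 8.18 to 8.56 in spleen, without overlap, and Rrm2 was detected on 1 LN array. Without spleen replicate 4 both Rrm1 (adjusted p = 0.0369) and Rrm2 (adjusted p = 0.0442) passed, and Rrm2 passed as well without LN replicate 2 (adjusted p = 0.0154). With the replicate number as a block, which pairs samples of the same number, Rrm2 had an adjusted p of 0.0493. Tyms, thymidylate synthase, had a fold of the other sign, 0.49 ± 0.25, and was not called (adjusted p = 0.245).

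Cyclin E1, encoded by Ccne1, activates CDK2 at the G1 to S border. Ccne1 had log2 intensities of 5.81, 4.87, 5.69 and 4.92 in LN, where 2 arrays detected it, and of 6.33, 7.09, 6.50 and 7.16 in spleen. All spleen arrays were above all LN arrays, with a fold of -1.45 ± 0.30 (adjusted p = 0.00812).

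Origin licensing and helicase genes had a median fold of -0.17, smaller than the -0.72 of nucleotide supply. Of the 9 tested, 1 was called lower, against 7.59% of all tested genes. Cdt1, which loads the MCM helicase onto origins, read 8.29, 8.61, 7.99 and 7.98 in LN and 8.84, 9.22, 8.71 and 9.15 in spleen. The groups did not overlap, with a fold of -0.76 ± 0.22 (adjusted p = 0.0407), but the call on Cdt1 was lost, at an adjusted p of up to 0.124, without LN replicate 1, 3 or 4 or spleen replicate 1 or 2. The 6 MCM genes, which encode the helicase ring itself, had folds between -0.65 for Mcm2 (± 0.36, adjusted p = 0.288) and -0.08 for Mcm3.

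Mcm3 read 7.14, 6.64, 7.16 and 7.53 in LN and 6.46, 6.60, 7.08 and 8.68 in spleen. Spleen replicate 4 was the highest and spleen replicate 1 the lowest of the 8, and the fold of -0.08 ± 0.45 (adjusted p = 0.938) became 0.41 (adjusted p = 0.272) without spleen replicate 4. Mcm4 read 11.42, 11.44 and 11.47 on spleen replicates 1 to 3 and 10.17 on spleen replicate 4, with LN arrays at 10.71 to 11.27. That one array set its fold of -0.13 ± 0.30 (adjusted p = 0.841), which was -0.45 (adjusted p = 0.0562) without it. Gins2, a subunit of the GINS complex of the active helicase, read 6.24, 6.73, 5.65 and 6.02 in LN and 6.63, 6.76, 5.87 and 5.67 in spleen. The groups overlapped throughout (fold -0.07 ± 0.32, adjusted p = 0.92).

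Both tested genes of fork function and chromatin copying had positive folds, and neither was called. Uhrf1, which carries DNA methylation over to the new strand, read 10.91, 11.44, 11.24 and 11.01 in LN and 10.84, 10.71, 10.68 and 10.07 in spleen. It was the one replication gene with all LN arrays above all spleen arrays, as was the case for 12.2% of all tested genes, and its fold of 0.57 ± 0.21 had an adjusted p of 0.103. Lig1, the ligase that joins Okazaki fragments, read 7.62, 8.15, 7.74 and 7.28 in LN and 8.10, 7.98, 7.58 and 6.98 in spleen. The fold was 0.04 ± 0.29 (adjusted p = 0.952), and it was -0.19 without spleen replicate 4.

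**Figure D3:**
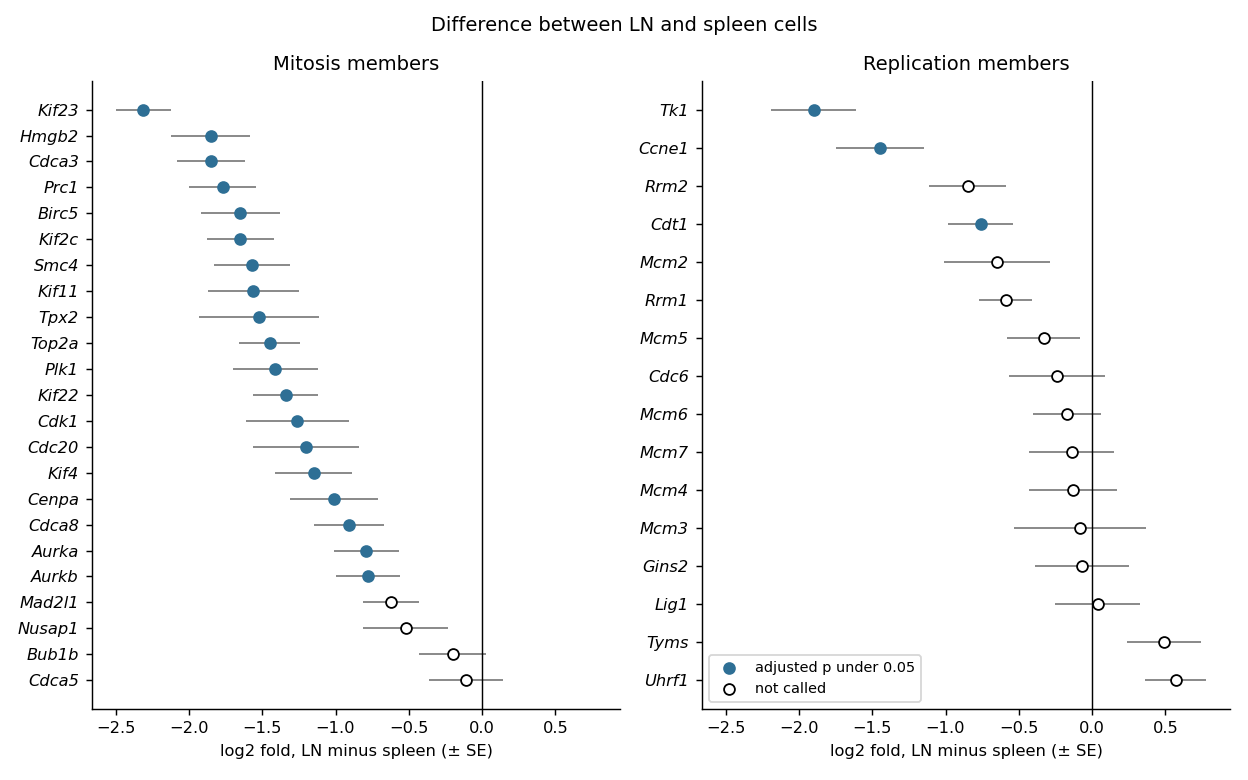
Log2 fold of LN minus spleen ± SE (n = 4 arrays per group) for the 39 tested genes, ordered by fold within mitosis and replication, with filled points for genes called at an adjusted p under 0.05. All 23 mitosis points lie left of 0, and the replication points run from -1.90 for Tk1 to 0.57 for Uhrf1.

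Of the other 14 genes, Mki67 and Ccnb1 had no probe named here, and 12 had probes that did not pass. These were Pcna, Ccne2 and Dut of replication and Ccna2, Ccnb2, Bub1, Kif20a, Ube2c, Cenpe, Racgap1, Stmn1 and Smc2 of mitosis. Apart from Dut, detected on 2 arrays, each was not above background on any array in either group, so their levels cannot be compared. Probe by probe, in a limma fit of every passing probe, 23 of 36 mitosis probes and 2 of 23 replication probes were called lower, and 0 were called higher. In that fit the only passing probes of Aurkb (adjusted p = 0.0501), Cenpa (adjusted p = 0.0566) and Cdt1 (adjusted p = 0.0508) were not called. The dimmer Cdca3 probe and the called Smc4 probe passed the detection filter through the spleen arrays alone, so their calls add no support. Over all passing probes 6.18% were called lower and 6.25% higher. Of 15 genes with more than 1 passing probe, 4 (Top2a, Cdc20, Kif23 and Smc4) had probes that differed in call and 0 had probes that differed in sign.

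The mean level of the 23 mitosis genes, as the difference from each gene's own mean, was -0.70, -0.54, -0.59 and -0.66 on LN replicates 1 to 4 and 0.60, 0.81, 0.52 and 0.55 on spleen replicates 1 to 4, in log2 units. That of the 16 replication genes was -0.26, -0.08, -0.19 and -0.25 in LN and 0.13, 0.29, 0.29 and 0.07 in spleen. In this mean, in which each gene weighs the same on the log2 scale, no LN array of either class reached a spleen array. Summed as normalized intensities, which brighter probes dominate, the mitosis genes ran from 6641 to 8999 in LN and from 14647 to 18928 in spleen, but the replication genes overlapped, at 6601 to 8434 and 6527 to 8591.

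Within spleen, replicate 4 did not move the genes one way. It was the highest of the spleen arrays for 11 mitosis genes and the lowest for 11 others. Birc5, Kif11 and Cdk1 were among the former, and Tpx2, Cdc20, Cenpa and Plk1 among the latter. Among replication genes it was the highest for 5, Mcm2 and Mcm3 among them, and the lowest for 8, with Mcm4 and Cdc6 among those. Spleen replicate 4 also had the lowest mean intensity of the 8 arrays, at 239 against 334 to 521 in the others.

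**Figure D4:**
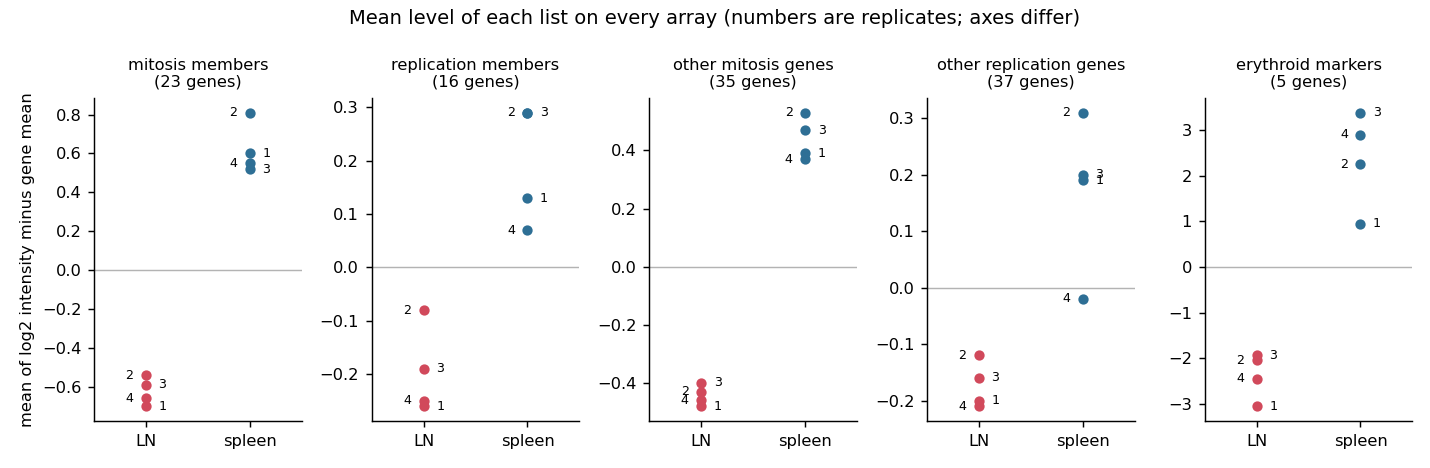
Mean level of the 23 mitosis genes, the 16 replication genes, the other mitosis and replication genes and the erythroid markers on each array, as the difference from each gene's own mean in log2 units, with numbers for the replicates and a vertical axis of its own in each panel. Mitosis levels run from -0.70 to -0.54 in LN and from 0.52 to 0.81 in spleen, and erythroid levels run from -3.05 to -1.93 in LN and from 0.95 to 3.38 in spleen.

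Other genes of the pathway were counted from lists of known roles, beside the 7.59% called lower and 7.99% called higher over all tested genes. Of 35 other mitosis genes tested, 21 were called lower and 1 higher, with a median fold of -1.11. Spag5, a spindle protein of the kinetochore, had log2 intensities of 7.13, 7.48, 7.14 and 6.72 in LN and of 9.11, 9.26, 9.06 and 9.08 in spleen (fold -2.01 ± 0.21, adjusted p = 0.000139). Cenpn, which binds the CENP-A nucleosome, had a fold of -2.03 ± 0.21 (adjusted p = 0.000161) and was detected on 2 LN arrays. Pbk, a mitotic protein kinase, had a fold of -1.70 ± 0.25 (adjusted p = 0.00123). The one gene called higher was Mybl2, which encodes B-MYB: it read 7.93, 7.97, 8.52 and 8.27 in LN and 6.70, 7.16, 7.44 and 6.92 in spleen, a fold of 1.11 ± 0.24 (adjusted p = 0.00895). Foxm1, its partner at mitotic promoters, went the other way, with a fold of -1.66 ± 0.24 (adjusted p = 0.00104), and it is named because of that role, after its values were seen.

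Of 37 other replication genes, 7 were called lower and 0 higher, with a median fold of -0.29. The largest folds were those of Timeless and Clspn, which protect stalled forks, at -1.66 ± 0.36 (adjusted p = 0.00971) and -1.61 ± 0.23 (adjusted p = 0.000949), and of Mcm10, a factor of origin firing, at -1.43 ± 0.20 (adjusted p = 0.000908). In all 3 genes no LN array overlapped with spleen.

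Of 9 genes for G1 cyclins, their kinases and Myc factors, 2 were called lower and 0 higher, with a median fold of -0.07 and 6 negative folds. Ccnd1, the cyclin D1 gene, read 9.93, 10.24, 10.44 and 8.92 in LN and 11.36, 11.78, 12.93 and 12.35 in spleen (fold -2.22 ± 0.39, adjusted p = 0.00321). Ccnd3, the cyclin D3 gene, had a fold of -1.40 ± 0.36 (adjusted p = 0.0257), and its call was lost, at an adjusted p of up to 0.0842, without any single LN array or without spleen replicate 3.

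Of 14 genes for E2F factors, pocket proteins and their partners, 1 was called lower and 1 higher, with a median fold of 0.10. These counts are near the shares over all tested genes, 7.59% lower and 7.99% higher. E2f2, an activating E2F, had log2 intensities of 6.81, 7.01, 7.15 and 6.29 in LN and of 9.05, 8.96, 9.50 and 9.17 in spleen. The groups stood far apart, with a fold of -2.35 ± 0.24 (adjusted p = 0.000125). E2f1, another activator, was not called (fold -0.09 ± 0.37, adjusted p = 0.916). Rbl2, the pocket protein p130 that holds E2F targets off in resting cells, was detected on all LN arrays and on 0 spleen arrays, a difference of at least 1.56-fold. Rbl2, the one gene of the list called higher, passed the detection filter through the LN arrays alone, so its call adds no support.

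Of 21 genes for CDK inhibitors and quiescence factors, 5 were called lower and 0 higher, with a median fold of 0.14. Gadd45g, a stress-induced inhibitor of growth, read 11.46, 12.11, 11.94 and 11.70 in LN and 14.04, 13.74, 13.75 and 13.53 in spleen (fold -1.96 ± 0.18, adjusted p = 7.79e-05). Klf2, a quiescence factor of lymphocytes, had a fold of -1.83 ± 0.42 (adjusted p = 0.0137), and Btg4, an antiproliferative gene, one of -1.47 ± 0.30 (adjusted p = 0.00695). The CDK inhibitor genes Cdkn1a, which encodes p21, and Cdkn1b, which encodes p27, were not called, with folds of 0.14 ± 0.25 (adjusted p = 0.791) and -0.77 ± 0.39 (adjusted p = 0.236).

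Markers of other cells moved with the groups as well, and their part in the differences of the cell cycle genes was not tested. Their counts stand beside the 7.59% called lower and 7.99% called higher over all tested genes. The erythroid list was the strongest: 5 of 5 tested markers were called lower in LN, with a median fold of -6.46, and their summed normalized intensity was 196 to 454 on the LN arrays and 5086 to 39813 on the spleen arrays. The largest folds of this list were those of the globin genes Hba-a1 (-6.66), Hbb-bs (-6.53) and Hbb-bt (-6.46), which made up most of the spleen sums. The smallest fold of the list was -1.75. Of the 16 erythroid markers with a probe, 8 were detected on no array, among them Gata1, Epb42 and Rhag. On spleen replicates 1 to 4 the erythroid sums were 5086, 17715, 39813 and 31559, and the mitosis sums were 16165, 18928, 14647 and 14738.

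Plasmacytoid dendritic cell markers were called lower for 5 of 8, Lag3, Tlr7 and Irf7 among them, with Ccr9 detected on no array. Their sums were 5846 to 7349 in LN and 16117 to 35834 in spleen. Irf7, at 11.23 to 11.51 in LN and 12.99 to 14.65 in spleen on the log2 scale, made up much of these sums. The median fold of this list was -1.10, with 7 of 8 negative. Its mean log2 level was -0.79 to -0.40 in LN and 0.59 to 0.67 in spleen. NK cell markers were called lower for 3 of 6 (sums 3781 to 6189 and 4623 to 7257), with Klrb1c, Ncr1 and Eomes on no array. Klra3, 1 of the 3 called, passed the detection filter through the spleen arrays alone, so its call adds no support. The B cell list had 1 of 4 called lower, Cd22 (sums 303 to 580 and 588 to 928), with Ms4a1 and Pax5 on no array. The macrophage and monocyte list had 1 of 9 called lower, Spic (sums 1951 to 2368 and 4222 to 5882), with Ccr2 and Cd5l on no array. The median fold of that list was -0.19, with 5 of 9 negative, and its mean log2 level, -0.16 to 0.10 in LN and -0.41 to 0.53 in spleen, overlapped. In the T cell list 1 of 2 was called, Thy1, which was higher in LN (sums 455 to 839 and 360 to 662), with Cd3g and Cd8a on no array. Plasma cell (0 of 2 called, sums 3456 to 3911 and 1752 to 3147) and neutrophil markers (0 of 1, sums 604 to 1774 and 932 to 1789) gave no call in limma, and no megakaryocyte marker passed the detection filter.

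In their promoters the listed genes of the classes differed in letters that their choice had not used. A window was on hand for 28 of the 34 mitosis genes and 16 of the 19 replication genes, from RefSeq. TTTGAA, on either strand, occurred in 22 of 28 mitosis windows (78.6%), in 1 of 16 replication windows (6.25%, Mcm2) and in 20.2% of the 27025 genes with a window. Within 100 bases of the start it occurred in 21 of the 28 (75.0%) and in 9.23% of all genes. CCAAT occurred in 82.1% of the mitosis genes, 56.2% of the replication genes and 41.1% of all genes. An E2F match, on either strand, occurred in 1 of 28 mitosis genes (3.57%, Cdk1), in 8 of 16 replication genes and in 2.60% of all genes. These matches are descriptions of letters and not of bound sites.

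Among the mitosis genes with a window, the CHR letters were in 15 of the 16 called lower, all but Birc5, and in 2 of the 4 not called (Cdca5 and Bub1b but not Nusap1 or Mad2l1). The 8 replication genes with an E2F match were Mcm3, Mcm5, Mcm6, Mcm7, Cdc6, Cdt1, Uhrf1 and Lig1, of which Cdt1 was called. Over all tested genes with a window, 15.0% of the 386 with TTTGAA within 100 bases of the start were called lower, against 6.87% of those without. With the cell cycle lists left out these shares were 9.69% and 6.62%. For TTTGAA together with CCAAT anywhere in the window they were 10.8% and 7.12% over all tested genes, and 5.99% and 6.83% with the lists left out. For E2F matches they were 7.42% and 7.33%, and 5.81% and 6.83% with the lists left out. None of these shares was tested.

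**Figure D5:**
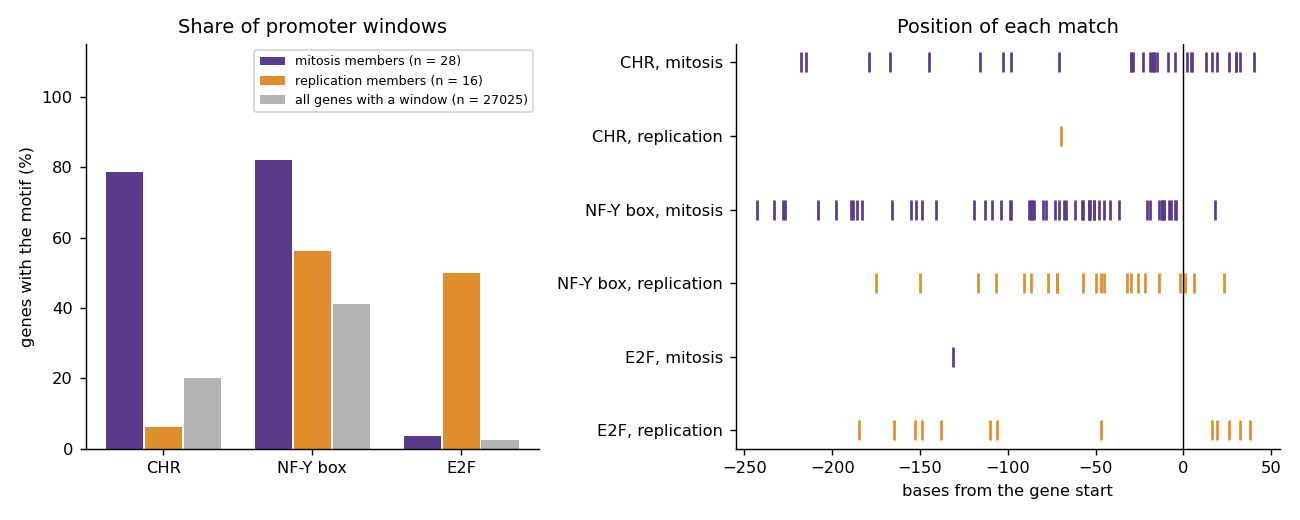
Left, percent of mitosis genes, replication genes and all genes with a promoter window that hold the CHR, CCAAT (labelled NF-Y box) or E2F letters; right, the position of each match in bases from the annotated start, with 1 row per motif and class. CHR letters are in 78.6% of mitosis genes against 20.2% of all genes, with a median position of -17, and 13 of the 14 E2F matches are in replication genes.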

How the data were processed

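The 8 arrays, Illumina mouse BeadChips with 4 arrays per group, were grouped by the sample titles and source names. BeadChip 1 held replicates 1 and 2 of both groups, and BeadChip 2 held replicates 3 and 4. The deposited non-normalized table gives, per the file headers, a bead intensity on a linear scale for each of 45281 probes, and the deposited table also holds a detection p-value per probe and array. The authors also deposited processed values, which by their range are log2 intensities, with a median of 6.28 on each array. They correlated at 0.999 to 1 with the logged intensities, array by array, and served as an alternative. The submitters' processing notes name Partek, and its role is not given in the sources used. The highest correlation between 2 arrays was 0.993, so no column of values was a copy of another. It cannot tell whether any 2 arrays measured the same RNA.

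The neqc function of limma 3.58.1 (R 4.3.3) corrected the background through the negative controls that the detection p implies, added an offset of 16, and applied quantile normalization and log2. Probes detected at p under 0.01 on at least 4 of 8 arrays were kept (14726, of which 12589 had 1 gene symbol in the platform annotation), and the brightest stood for its gene. Group means were fitted with limma (lmFit, and eBayes with an intensity trend), two-sided, with Benjamini-Hochberg adjustment over 8252 genes. The script was tested on simulated data. Errors are standard errors unless marked SD. With 4 arrays against 4 a two-sided exact permutation test of 1 gene cannot go below p = 0.0286. The number of arrays limits the precision.

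For a gene detected throughout 1 group and nowhere in the other, a bound was computed: the bright group's mean over the dim group's, where each dim array takes its lowest detected signal or the probe's own, whichever is higher. The series text says that both organs came from the same mice, and deviations of same-numbered samples from the group means correlated at 0.31, 0.57, 0.27 and 0.54, so the replicate number was tried as a block. The other alternatives were no background correction, median scaling, cyclic loess, the authors' values, detection on all 8 arrays, no detection filter, every probe or the mean of the passing probes, no intensity trend, BeadChip as a block, each BeadChip alone, and each array left out in turn (the brightest probe picked again each time, or, added after seeing the data, held).

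Values on every array are given, per class, for the 8 called genes with the largest folds, for the 3 tested genes with the smallest folds, and for genes detected in 1 group only. Of the other lists, up to 3 called genes per direction are named. The members and lists were chosen with earlier results of these data known, so a list is described by its counts and its median alone. Promoter windows (250 bases before to 50 after each start) are RefSeq's on GRCm38.p6, and 44 of 53 genes matched by symbol or identifier. Python 3.11.15, pandas 2.3.3 and matplotlib 3.10.9 served for the letters and the plots.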

Additional observations from a re-analysis of the deposited data

Results flagged for a closer look

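Of 78 sets of 4 arrays examined (39 genes in each of 2 groups), 4 had 1 array far from the other 3, by a gap to the nearest of them, as a share of the whole range, above Dixon's critical value, and chance alone gives such flags at a rate of about 5%. Spleen replicate 4 was the far array in 3 of them. For Bub1b it read 10.70 on the log2 scale against 9.80 to 9.90 on the other spleen arrays (gap 0.885 of the range). For Kif11 it read 7.38 against 6.40 to 6.56 (gap 0.843). For Mcm4 it read 10.17, below the 11.42 to 11.47 of the others (gap 0.96). LN replicate 3 read 6.57 for Kif2c, above the 6.11 to 6.13 of the other LN arrays (gap 0.952).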

How the results depend on the processing

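Among the tested mitosis genes the sign turned only for Cdca5 and Bub1b, neither of them called, and calls were less stable than directions. Of the 19 mitosis calls 4 (Cdca3, Hmgb2, Kif23 and Prc1) held under each of the 20 alternatives scored per gene, and 11 held whichever single array was left out. The fit of every passing probe was not scored per gene, and in it 1 Kif23 probe was not called. Of the 3 replication calls 1 (Tk1) held under the 19 alternatives that tested it, since it was not detected on all 8 arrays, and 2 held whichever single array was left out. With each gene's probe held while arrays were left out, added after seeing the data, Smc4 kept its call without spleen replicate 4 (-1.39) and on BeadChip 1 (-1.53). That Smc4 probe passed the detection filter through the spleen arrays alone, so the kept call adds no support. With probes held, BeadChip 2 alone called 372 genes, 4 of mitosis and 1 of replication. With the replicate block, 19 mitosis and 4 replication genes were called lower, Rrm2 being the one added, and it changed no other call among the 39 genes; over all genes it called 1745 against 1285. BeadChip 2 alone, with 2 arrays per group, called 361 genes in all, 4 mitosis genes, 1 replication gene, and 8 genes of the other cell cycle lists, of which 3 were other mitosis genes and 0 other replication genes (limma). Median scaling left 10 mitosis genes, 24 genes of the other cell cycle lists (38 otherwise), 13 other mitosis genes and 4 other replication genes. The BeadChip block called 5 replication genes, and BeadChip 1 alone called 11 other replication genes. Marker calls, 17 in all, became 9 with detection on all 8 arrays (fewer genes tested), 28 with every probe and 26 on BeadChip 1 alone.

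The median mitosis fold, -1.34, was -0.94 without background correction and with the authors' values, -1.09 with median scaling, -1.23 with detection on all 8 arrays, -0.96 with no filter, -1.5 on BeadChip 1 and -1.14 on BeadChip 2. The median replication fold, -0.21, was -0.03 with median scaling, -0.31 on BeadChip 1 and -0.35 on BeadChip 2. Under median scaling the sign turned for Cdca5 (0.04), Bub1b (0.04), Mcm3 (0.20), Mcm4 (0.06), Mcm6 (0.05), Mcm7 (0.06), Gins2 (0.09) and E2f1 (0.12), so that 8 of 16 replication folds stayed negative. On BeadChip 1 it turned for Mcm3 (0.37) and Lig1 (-0.15), and on BeadChip 2 for Cdca5 (0.17), Mcm4 (0.11), Mcm7 (0.02) and Gins2 (0.06). None of these genes was called. The causes were not tested.

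Leaving out 1 array at a time gave 12 to 20 mitosis calls, or up to 21 with probes held, Smc4 among them. It gave 2 to 5 replication calls and 890 to 1991 calls over all genes (1991 without spleen replicate 4, and 1986 there with probes held). Calls numbered 29 to 50 in the other cell cycle lists, 15 to 24 for other mitosis genes, 6 to 10 for other replication genes and 15 to 21 for markers. The median folds ran from -1.39 to -1.28 for mitosis and from -0.39 to -0.16 for replication. The folds that turned sign ran from -0.24 to 0.11 for Cdca5, -0.29 to 0.01 for Bub1b, -0.33 to 0.41 for Mcm3, -0.40 to 0.00 for Mcm7, -0.26 to 0.10 for Gins2, -0.19 to 0.19 for Lig1 and -0.37 to 0.19 for E2f1. Probes near background, such as those of Tk1, Kif11 and Ccne1 in LN, limit the size of their folds.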
